A study of Rattus norvegicus with 8 samples.

Results

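The classical complement pathway was followed here through 9 genes, C1qa, C1qb, C1qc, C1r, C1s, C2, C4a, C4b and Serping1. A gene counted as measured when at least 1 probe set, the group of short probes that an array holds for a transcript, was annotated to it alone. C1qa, C1qb, C1qc, C1r, C1s and Serping1 met this with 1 probe set each, so 6 of the 9 genes were measured, among 14217 genes with such a probe set in all. C2, C4a and C4b were not measured under this rule, because their probe sets were annotated to a second gene as well. Kidney RNA of male Wistar rats, 8 weeks old, was hybridized to 8 Affymetrix rat arrays with 1 rat per array. The HP group (n = 4) was fed a high phosphorus diet with 1.2% phosphorus for 24 days, and the control group (n = 4) the AIN-93G diet with 0.3% phosphorus for the same time. The added phosphorus was given as KH2PO4 in place of corn starch, so potassium was raised with it. The rats were chosen by the authors as the average ones of each group by urine volume and kidney phosphorus content, and their spread is therefore that of a selection.

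The classical pathway is the arm of complement that antibody bound to a target sets off. C1q, a bouquet-shaped protein built from the A, B and C chains that C1qa, C1qb and C1qc encode, recognizes the antibody and also dying cells and pentraxins. It carries the serine proteases C1r and C1s. C1r cleaves C1s, which in turn cleaves C4 and C2 to form the enzyme that splits C3. Serping1 encodes the C1 inhibitor, a serpin that inactivates both proteases and takes them off C1q. The liver makes most of the circulating C4, C2 and C1 inhibitor, while C1q comes mainly from macrophages and dendritic cells, and fibroblasts are a known source of C1r, C1s and C1 inhibitor.

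Each value is a logarithm, read here as log2 since no base is given, that the authors obtained with the distribution free weighted method (DFW). This method shrinks each probe set's values by their own spread, so a difference is not a log2 fold change. Differences are therefore given as HP minus control with the standard error (SE) of limma and as standardized differences, which are differences divided by the pooled SD within the diets. Over the 31042 probe sets tested, the median absolute difference was 1.53e-06 and the median pooled SD 2.22e-06. The pooled SDs of the 6 genes were higher than those of 96.9% to 99.6% of all probe sets. All adjusted p-values come from limma over these probe sets with the Benjamini-Hochberg adjustment, and values under 0.05 were taken as passing.

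On the HP diet 4 of the 6 measured genes, C1qa, C1r, C1s and Serping1, rose and none fell, although C1r turned lower after quantile normalization. C1qb and C1qc did not pass. At an unadjusted p under 0.05 all 6 were higher and none was lower, where 5889 of the 31042 probe sets passed in either direction. Rank products, the test used in the study, called 6 higher and 0 lower. Of all probe sets, limma called 2.95% higher and 1.13% lower, and rank products called 3.4% higher. Without moderation of the variances 2 of the 6 genes were called higher, against 1.68% of all probe sets. After quantile normalization 1 was called higher (C1qa) and 1 lower (C1r), where 1.02% of all probe sets were called higher and 24.8% lower. The median standardized difference was 3.75 over the 6 genes and -0.21 over all probe sets. The lowest HP array exceeded the highest control array in each of the 6 genes, as it did in 7.09% of all probe sets, while 5.81% of all probe sets had the opposite order (two-sided exact permutation test over 70 arrangements, p = 0.029 for each gene, the smallest p that 4 arrays against 4 allow). Ranked by the moderated t of limma from the highest down, the genes stood between place 18 (C1s) and place 1364 (C1qb) of the 31042 probe sets. After centring of each array on its median none of the 6 passed (adjusted p = 0.41 for C1qa and 0.98 for the other genes). This centring shifted HP minus control by -6.11e-05 in all probe sets, so the sign after it depends only on the size of the difference. All 6 differences were larger than the shift and stayed positive, while 0.251% of all probe sets were then called higher and 0.0612% lower. The diets were then apart in 4 of the 6 genes, with HP above control, against 1.11% of all probe sets, and after quantile normalization in 0 of the 6, against 1.03%.

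**Figure D1:**
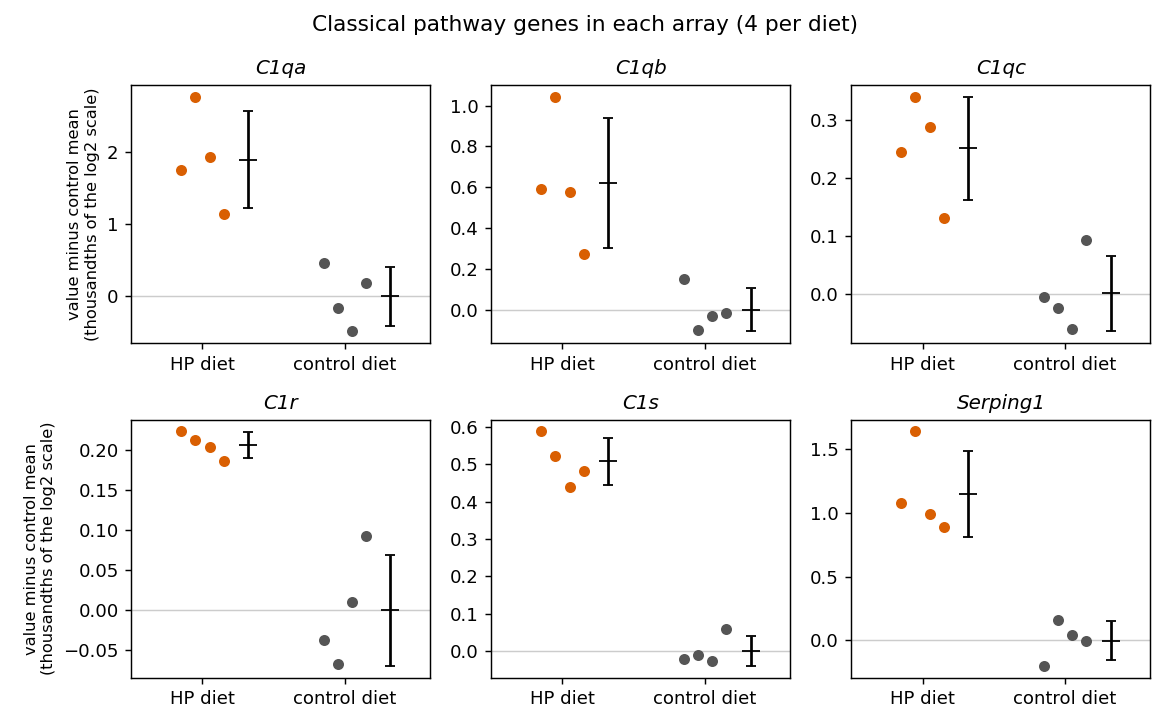
Deposited value of each array minus the control mean, in thousandths of the log2 scale, for the 6 measured genes of the classical pathway, with the 4 HP arrays (orange) left of the 4 control arrays (grey) and bars for the mean ± SD. The diets did not overlap in any gene, and the gap between the lowest HP array and the highest control array was 0.000673 for C1qa and 3.9e-05 for C1qc.

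**Figure D2:**
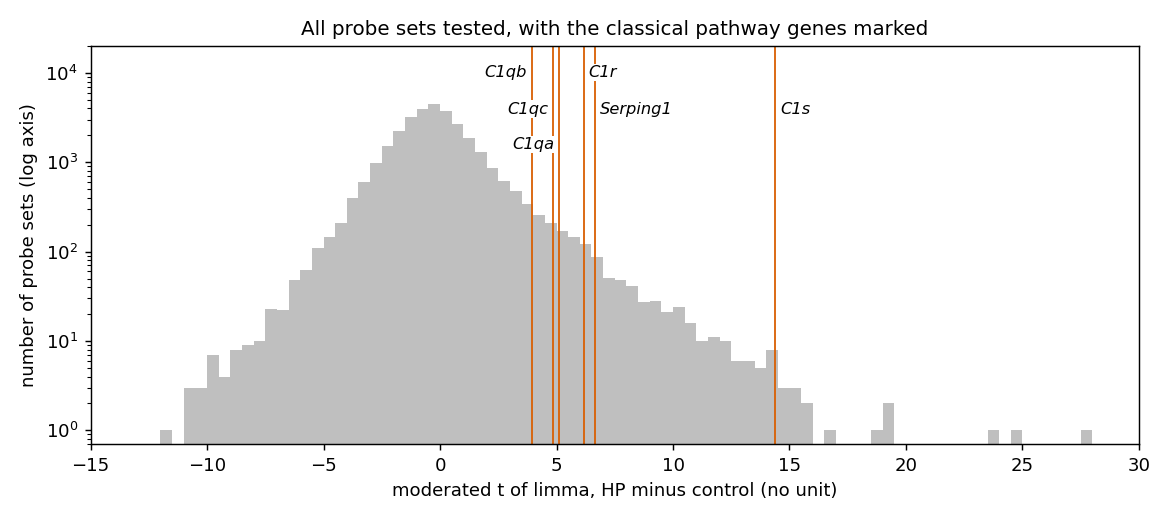
Number of probe sets (log axis) by moderated t of limma for HP minus control, with orange lines at the 6 measured genes. C1s stood at 14.39, Serping1 at 6.65, C1r at 6.17, C1qa at 5.1, C1qc at 4.83 and C1qb at 3.94, where all probe sets ranged between -11.57 and 27.82 with a median of -0.27 and C1r turned negative after quantile normalization.

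The recognition subunits were described first. C1qa, the A chain, had values of 8.6880, 8.6890, 8.6881 and 8.6873 in the 4 HP arrays, against 8.6867, 8.6861, 8.6857 and 8.6864 in the 4 control arrays. HP replicate 2 was the highest array and HP replicate 4 the lowest of its diet, and the diets did not overlap. C1qa rose by 0.00189 (SE 0.000371, 95% interval 0.00101 to 0.00278), a standardized difference of 3.40 with an adjusted p of 0.043. The call was kept without HP replicate 4 (adjusted p = 0.039) and was lost when any of the other 7 arrays was left out (up to 0.11).

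C1qb, the B chain, had values of 7.4542, 7.4547, 7.4542 and 7.4539 in the HP arrays and 7.4538, 7.4535, 7.4536 and 7.4536 in the control arrays. HP replicate 2 was again the highest and HP replicate 4 the lowest of the HP arrays, and HP replicate 4 lay only 0.000125 above the highest control array. The difference was 0.000621 (SE 0.000157, 95% interval 0.000246 to 0.000996), with a standardized difference of 2.63. It did not pass (adjusted p = 0.089), nor did it when any 1 array was left out (0.056 to 0.19), while its FDR by rank products was 0.00028.

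C1qc, the C chain, had values of 7.926677, 7.926772, 7.926720 and 7.926563 in the HP arrays and 7.926426, 7.926408, 7.926372 and 7.926524 in the control arrays. The order of the HP arrays at its ends was that of the other chains, with HP replicate 2 highest and HP replicate 4 lowest, and control replicate 4 came closest to them. The difference of 0.000251 (SE 5.19e-05) corresponded to a standardized difference of 3.21 and missed the threshold narrowly (adjusted p = 0.051). It passed without HP replicate 4 (0.033), without the dimmest 25% of the probe sets (0.043) and with 1 probe set per gene (0.037). The 3 chains thus stood at standardized differences of 2.63 to 3.40, and whether they differed from each other was not tested.

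In the RefSeq annotation of the GRCr8 assembly C1qb, C1qc and C1qa follow each other on chromosome 5 with no other gene between them, and C1r and C1s are neighbours on chromosome 4. Promoters, from 250 bases before to 50 bases after the start of a gene, were matched by gene ID for 3 of the 6 measured genes. They are shown because the genes of each cluster were all higher on the HP arrays as deposited, although C1qb and C1qc did not pass. After quantile normalization C1r turned lower and C1s showed no difference. Capitals mark matches on either strand to the interferon-stimulated response element (GAAA, any 2 bases, GAAA), TTCNNNGAA (gamma-activated site), GAGGAAG (PU.1), TGCTGA (MAF half-site) and TTGCNNAA (C/EBP), letters that were chosen after the promoters and the values had been read.
C1qa, chr5:154419884-154420183, minus strand: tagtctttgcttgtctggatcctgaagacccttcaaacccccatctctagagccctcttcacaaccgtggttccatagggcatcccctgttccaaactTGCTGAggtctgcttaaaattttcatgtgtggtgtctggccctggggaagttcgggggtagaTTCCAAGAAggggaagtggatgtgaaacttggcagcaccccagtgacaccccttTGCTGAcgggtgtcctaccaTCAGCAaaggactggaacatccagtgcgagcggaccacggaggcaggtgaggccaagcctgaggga
C1qb, chr5:154407778-154408077, minus strand: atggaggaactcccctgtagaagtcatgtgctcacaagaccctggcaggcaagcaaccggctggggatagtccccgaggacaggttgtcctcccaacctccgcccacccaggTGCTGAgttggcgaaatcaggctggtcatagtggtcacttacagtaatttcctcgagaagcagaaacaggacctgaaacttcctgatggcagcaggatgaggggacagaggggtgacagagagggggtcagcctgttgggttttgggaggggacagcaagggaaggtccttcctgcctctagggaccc
C1r, chr4:159098763-159099062, plus strand: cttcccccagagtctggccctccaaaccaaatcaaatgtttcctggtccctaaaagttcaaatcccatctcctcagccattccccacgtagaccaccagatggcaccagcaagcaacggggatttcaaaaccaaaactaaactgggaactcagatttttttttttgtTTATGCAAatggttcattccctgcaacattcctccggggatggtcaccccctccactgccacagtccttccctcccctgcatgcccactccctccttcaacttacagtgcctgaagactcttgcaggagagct

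The C1qa promoter held TGCTGA 3 times, beginning 152, 36 and 16 bases before the start, the last of them on the opposite strand, and TTCNNNGAA once, 90 bases before it. The C1qb promoter held TGCTGA once, 138 bases before the start, and none of the other motifs. The C1r promoter held TTGCNNAA once, on the opposite strand and 83 bases before the start. No match overlapped another. Among the 33469 RefSeq promoters searched, 18.4% held TGCTGA at least once and 0.197% at least 3 times, 8.87% held TTCNNNGAA, 10.6% TTGCNNAA, 12.4% GAGGAAG and 3.92% the interferon-stimulated response element. These are matches of letters only, and binding was not measured.

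The proteases of C1 were examined next. C1s, which cleaves C4 and C2, had values of 9.916634, 9.916569, 9.916485 and 9.916527 in the HP arrays, against 9.916025, 9.916034, 9.916019 and 9.916105 in the control arrays. The arrays of each diet lay close together, and the lowest HP array was 0.00038 above the highest control array. C1s rose by 0.000508 (SE 3.53e-05, 95% interval 0.000424 to 0.000592), a standardized difference of 9.57 with an adjusted p of 0.0038. The diet accounted for 96.8% of the variation between the 8 arrays, against 69.7% to 86.7% for the other 5 genes. The call was kept when any 1 array was left out (adjusted p = 0.0084 to 0.02). Quantile normalization left no difference (adjusted p = 1), since C1s held the same place by level, 1997 of 31042, on all 8 arrays.

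C1r, which activates C1s, had values of 9.591966, 9.591955, 9.591946 and 9.591929 in the HP arrays and 9.591706, 9.591676, 9.591753 and 9.591835 in the control arrays. The HP arrays were the tighter group, with an SD of 1.55e-05 against 6.95e-05 in the control arrays, and control replicate 4 was the highest of its diet. C1r rose by 0.000207 (SE 3.35e-05, standardized difference 4.10, limma's adjusted p = 0.026) but the sign turned under quantile normalization, which called it lower (-0.00174, adjusted p = 1.4e-33). Its place by level was 2601 on every HP array and 2600 on every control array. The call was kept without control replicate 4 (0.013) and lost when any of the other 7 arrays was left out (up to 0.076, without control replicate 3).

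The inhibitor of C1 rose with its targets, of which C1r turned lower and C1s showed no difference after quantile normalization. Serping1 had values of 9.7619, 9.7625, 9.7619 and 9.7618 in the HP arrays, against 9.7607, 9.7610, 9.7609 and 9.7609 in the control arrays. HP replicate 2 stood highest, as it did for the C1q chains, and the gap between the diets was 0.000724. The difference was 0.00115 (SE 0.000172, 95% interval 0.000736 to 0.00156), a standardized difference of 4.42 with an adjusted p of 0.022. Without HP replicate 2 the adjusted p was 0.012, and the call was lost without HP replicate 1 or any 1 of the control arrays (up to 0.068, without control replicate 3). After quantile normalization the difference was 0.000756 and did not pass (0.16).

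Markers of 2 cell types moved with these genes. Of 15 macrophage markers 12 rose, none fell and 3 did not pass, where 4.58% of all genes by their probe set of highest mean were called higher and 1.23% lower. At an unadjusted p under 0.05, 14 were higher and none lower, against 5889 of the 31042 probe sets in either direction. The 12 called higher all kept a positive difference under both other scalings, with 5 of them called after median centring and 10 after quantile normalization. Without HP replicate 4 the number called was 13, and it fell to 4 without HP replicate 1 or control replicate 2, 3 or 4. They were led by Ptprc, the leukocyte phosphatase CD45, and Aif1, a calcium-binding protein of macrophages, with standardized differences of 6.20 (adjusted p = 0.0084) and 6.13 (0.0086). The other Ptprc probe set passed as well (0.012), while that of Aif1 had a standardized difference of -2.26 (0.14). The 3 that did not pass were Laptm5 at 3.15 (0.054), Itgam at 2.46 (0.11) and Cd163 at -0.26 (0.90). The other probe set of Laptm5 stood at 5.81 (0.0099). Averaged over the 15 markers, the distance from the control mean was 3.99, 5.49, 3.63 and 2.94 pooled SDs in HP replicates 1 to 4, and between -0.34 and 0.40 in the control arrays. For the mean of C1qa, C1qb and C1qc it was 2.92, 4.58, 3.19 and 1.62 in the same HP arrays and between -0.59 and 0.48 in the control arrays, so HP replicate 2 was highest and HP replicate 4 lowest for both. A high HP replicate 2 was not particular to them. It was also the highest HP array for the markers of T and NK cells (2.02), B and plasma cells (1.04) and hepatocytes (0.64), but not for every list. Of 10 fibroblast markers 6 rose, none fell and 4 did not pass, against the same 4.58% and 1.23% of all genes, with Col3a1, a fibrillar collagen, at a standardized difference of 8.00 (adjusted p = 0.0051) and the proteoglycan Dcn at 6.84 (0.0067). None of the 6 turned negative under the other scalings, but the list then had 1 call after median centring, and 3 higher and 1 lower after quantile normalization. Of all probe sets, 0.251% were called higher after median centring, and 1.02% higher and 24.8% lower after quantile normalization. The mean distance of the 10 fibroblast markers was 4.05 to 4.24 pooled SDs in the HP arrays and -0.57 to 0.61 in the control arrays. The part of either cell type in the complement values was not tested, and in whole kidney more cells of a type and more RNA per cell cannot be told apart.

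**Figure D3:**
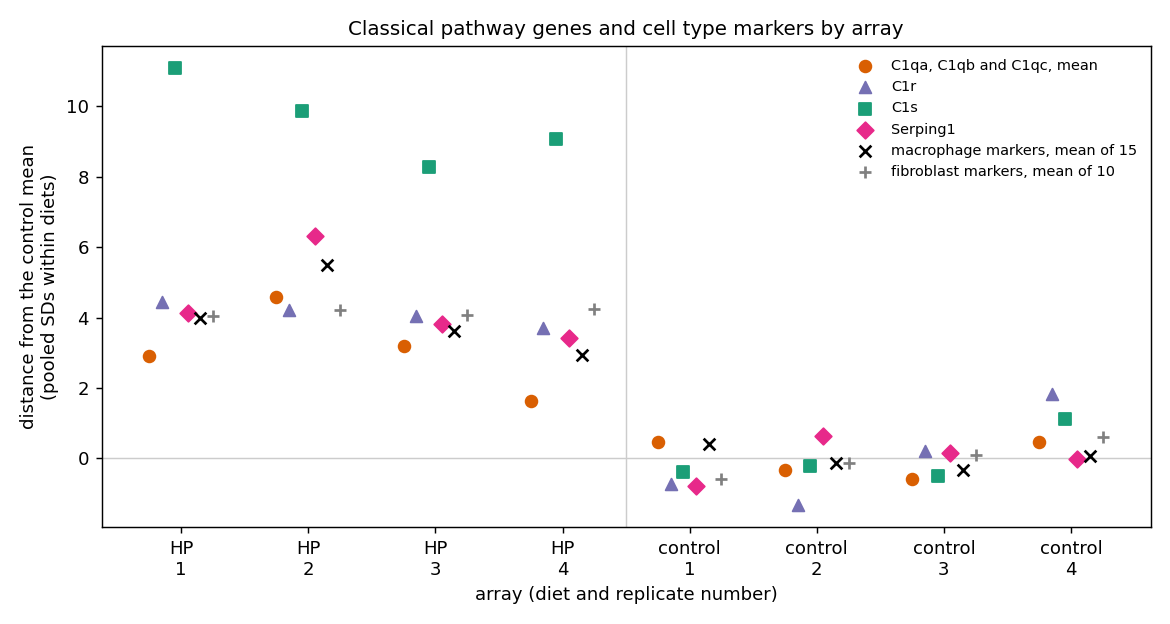
Distance of each array from the control mean, in pooled SDs within the diets, for the mean of C1qa, C1qb and C1qc, for C1r, C1s and Serping1, and for the means of 15 macrophage and 10 fibroblast markers, with HP arrays left of control arrays. The C1q mean and the macrophage mean were both highest in HP replicate 2 (4.58 and 5.49) and lowest among the HP arrays in HP replicate 4 (1.62 and 2.94), whereas the fibroblast mean stayed between 4.05 and 4.24. HP replicate 2 was also highest for some lists not drawn here, such as the T and NK cell markers (2.02).

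Of 9 hepatocyte markers the fibrinogen chains Fga and Fgb rose (adjusted p = 0.022 and 0.024), Apoc3 fell (0.049) and 6 did not pass. Of all genes by their probe set of highest mean, 4.58% were called higher and 1.23% lower. The calls of Fga and Fgb were lost without HP replicate 1 or any 1 control array, while the other probe set of Fga passed as well (3.45, adjusted p = 0.042) and those of Fgb did not (-1.62 and 0.10). That of Apoc3 was lost for 7 of the 8 arrays left out in turn (up to 0.12). Alb, the defining secreted protein of the liver, had a standardized difference of -1.35 (0.34). Of 8 T and NK cell markers the T cell receptor subunit Cd3g passed (0.024), against the same 4.58% of all genes called higher. When 1 array was left out, 0 to 1 of the 8 were called. At an unadjusted p under 0.05, 3 of the 8 were higher and 0 lower, against 5889 of the 31042 probe sets in either direction. Rank products also called 3 higher and 0 lower, where it called 3.4% of all probe sets higher. The lists for proximal tubule, distal nephron, podocyte, endothelium, B and plasma cells and neutrophils held 27 measured genes, none of which passed limma. At an unadjusted p under 0.05, 1 was higher and 3 were lower, against 5889 of the 31042 probe sets in either direction. Rank products called 1 higher and 0 lower, with each gene taken by its probe set of highest mean. The kidney label was borne out by Umod, the urinary protein of the thick limb, at 13.52 and Slc34a1, the phosphate carrier of the proximal tubule, at 13.30 on a scale that ended at 14.5. This Slc34a1 probe set had a standardized difference of -1.50 (limma's adjusted p = 0.31), and the other probe set -3.03 (0.06). The study listed Slc34a1 as lower on the HP diet and reported the decrease by in situ hybridization as well.

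The pattern of the C1q chains over the 8 arrays was compared with that of every other gene, as a description. Among 14211 genes the highest Pearson correlations with the mean of the standardized C1qa, C1qb and C1qc values belonged to the protease inhibitor Cst3 (0.996), the ribosomal protein gene Rpl23 (0.993), the lysosomal protease Ctss (0.990), Lrrfip1 (0.989) and the macrophage sialomucin Cd68 (0.988). These values include the distance between the diets, which all 5 genes shared (standardized differences of 3.10 to 3.95), although Rpl23 did not pass (adjusted p = 0.075). The same measure was 0.932 for Serping1, 0.890 for C1s and 0.862 for C1r, which placed them at 252, 602 and 806 among 14217 genes.

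Among transcription factors known to act on C1q genes or on interferon-induced complement genes, 3 were examined and 2 rose. Irf8, a factor of macrophages and dendritic cells, had a standardized difference of 16.55 (adjusted p = 0.00094), and Irf1, an interferon-induced factor, one of 11.17 (0.0038). Cebpb, at 1.34 (0.34), did not pass. Both calls were kept when any 1 array was left out (0.0022 to 0.014 for Irf8 and 0.0048 to 0.018 for Irf1). Both were lost after median centring (0.98 each), and that of Irf8 also after quantile normalization (0.065).

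To see how far the change reached along the cascade, 27 of 32 other complement genes could be examined, each by its probe set of highest mean. Of these 4 were called higher (2 of them, Fcna and Lrp1, with another sign under other scalings), none lower and 23 did not pass, where limma called 4.58% of all genes higher and 1.23% lower. At an unadjusted p under 0.05, 7 were higher and 3 (Mbl1, Masp1 and C8g) lower, against 5889 of the 31042 probe sets in either direction. Rank products called 4 higher (Fcnb, C3, Cfi and Lrp1) and 2 lower (Mbl1 and C8g), where it called 3.4% of all probe sets higher. After quantile normalization the calls were 2 higher and 11 lower, where 1.02% of all probe sets were called higher and 24.8% lower. The median standardized difference was 0.35, and -0.07 over all genes taken the same way.

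C3, on which all arms of complement converge, was the largest of these. Its values were 7.1466, 7.1483, 7.1474 and 7.1466 in the HP arrays, against 7.1433, 7.1428, 7.1412 and 7.1418 in the control arrays, and the diets did not overlap. The rise of C3 was 0.00496 (SE 0.000593), or 5.57 pooled SDs (adjusted p = 0.012), and the call was kept under median centring (1.4e-14), quantile normalization (0.00085) and without any 1 array (up to 0.036). The other genes between C3 and the membrane attack complex, C5, C6, C8a, C8b, C8g and C9, did not pass, with standardized differences between -2.26 (C8g) and 1.04 (C5). On both diets C6, C8a, C8b and C9 had means of 6.52, 6.24, 6.66 and 6.82, below the lowest array median of 7.0562. Whether these transcripts were detected was not tested, and Cfi, described next, passed at a mean of 6.60. In C8g, a chain of the pore, the highest HP array was below the lowest control array.

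Of the 6 genes that control C4b and C3b, Cfi, the protease that cuts both once a cofactor holds them, rose by 0.00065 (SE 8.1e-05, standardized difference 5.34, adjusted p = 0.013). Its call held after quantile normalization (0.0011) and without any 1 array (up to 0.045) but not after median centring (0.98). The chains of C4b-binding protein, C4bpa and C4bpb, had standardized differences of 2.39 (0.11) and -0.24 (0.91). Cd46, Cd55 and Cr1l, which guard the cell membrane, did not pass either, with -0.65, 1.28 and 2.04.

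The lectin arm, in which mannose-binding lectins and ficolins take the place of C1q, did not move in 1 direction. Fcna, the ficolin A of plasma and macrophages, stood at 3.44 pooled SDs (adjusted p = 0.047), but median centring made its difference negative and quantile normalization removed it. The call was lost when any 1 array was left out (up to 0.12). Since median centring shifts every difference by -6.11e-05, it turns positive differences as small as those of Fcna (4.68e-06), Fcnb (4.21e-05) and Lrp1 (4.34e-05) negative whatever the gene. Fcnb stood at 2.63 (0.089), turning negative after median centring, and the proteases Masp1 and Masp2 at -2.08 (0.16) and 1.44 (0.40). Mbl1 had a standardized difference of -2.21 (0.14) and lay lower in every HP array. Among receptors and binding proteins of C1q, Lrp1, an endocytic receptor, stood at 3.45 pooled SDs (0.042), but its sign was negative both with median centring and with quantile normalization, which called it lower (0.0079). The higher call was lost when any 1 array was left out (up to 0.1), and its other probe set stood at -0.96 (0.74). C1qbp, Calr, Cd93 and Scarf1 did not pass (standardized differences of -0.15, -1.12, 1.43 and -1.13). The pentraxins Crp and Apcs, which C1q can bind, did not pass (-1.30 and 0.43).

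**Figure D4:**
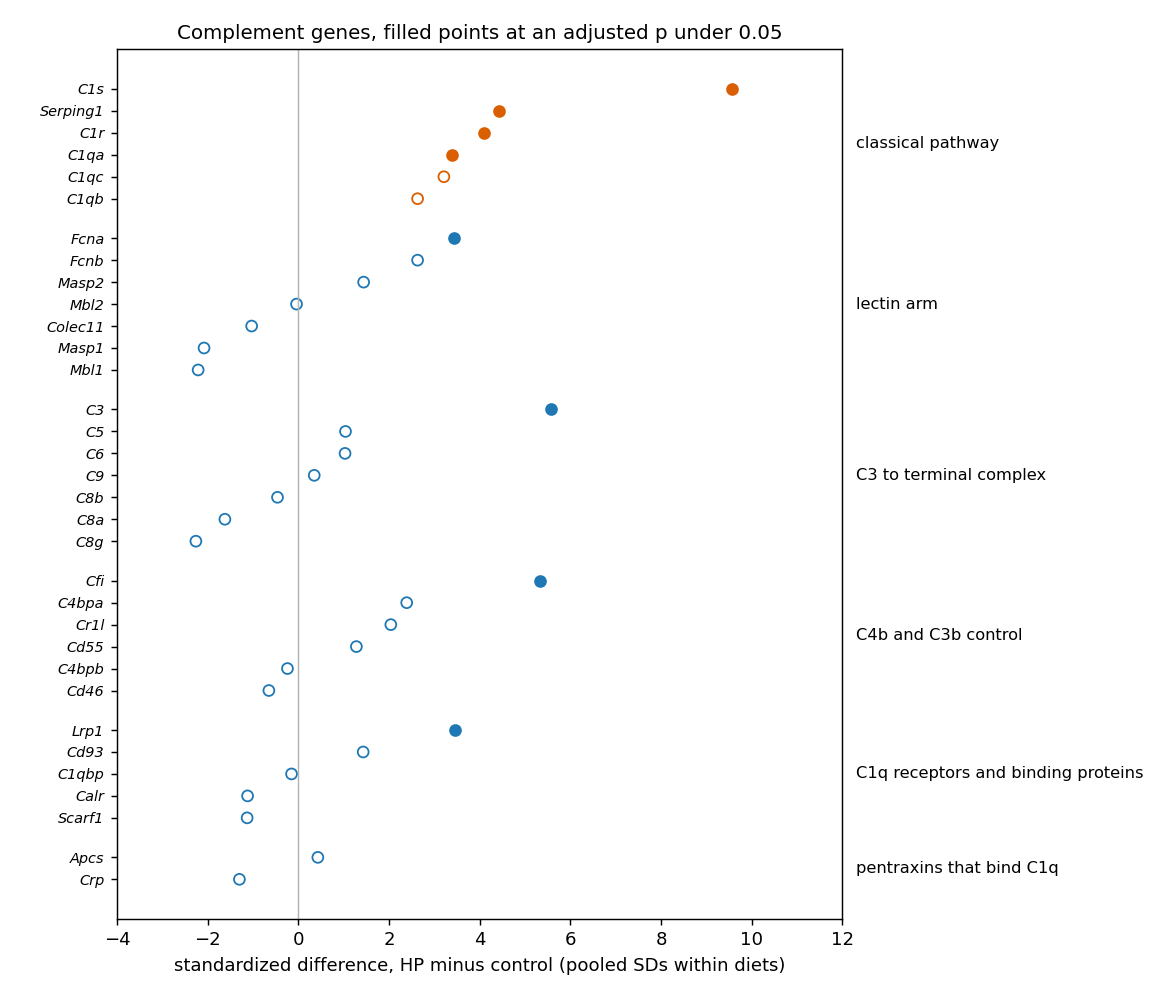
Standardized difference (HP minus control, in pooled SDs within the diets) of the 6 measured genes of the classical pathway (orange) and of 27 other complement genes by group (blue), with filled points at an adjusted p under 0.05 by limma. C1s at 9.57, C3 at 5.57 and Cfi at 5.34 stand farthest from 0, while C1r, Fcna and Lrp1 at 4.10, 3.44 and 3.45 changed sign under another scaling of the arrays (C1r after quantile normalization, Fcna after median centring, Lrp1 after both).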

How the data were processed

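Kidney RNA of 8 rats, 4 per diet, was measured on Affymetrix arrays. The authors quantified the probe intensities with DFW in R and Bioconductor (versions not given in the sources used here) and deposited 1 value per probe set on a log scale, read as log2. The table holds 31099 probe sets, and 57 array controls were removed. By the GEO platform annotation 20826 of the others had 1 gene, 436 several and 9780 none listed, and only the first were named. The diets were compared with limma 3.58.1 (lmFit and eBayes, prior degrees of freedom 0.772) in R 4.3.3, tested beforehand on simulated data. Rank products followed the study's description (16 pairs of arrays, 1000 permutations, FDR under 0.05). The remaining steps ran in Python 3.11.15 (pandas 2.3.3, scipy 1.17.1). Intervals are 95% intervals of the moderated fit.

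The alternatives were no moderation, trend and robust moderation, array weights, the replicate number as a block, quantile normalization, median centring, removal of the dimmest 25% of the probe sets, 1 probe set per gene, rank products and leaving out each array. Named are all classical pathway genes, the passing genes of each other complement and transcription factor list (or those of smallest p), the 2 leading genes of marker lists with calls, and the 5 genes most like C1q over the arrays. Other values were chosen after they were seen. The genes and lists were chosen with earlier results of these data known. The precision is limited by the number of arrays.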

Additional observations from a re-analysis of the deposited data

How the results depend on the processing

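Of the 6 classical pathway genes limma called 4 higher, and 4 or 5 with trend and robust moderation, array weights, the filter on dim probe sets or 1 probe set per gene. It called 2 without moderation, 1 with the replicate number as a block (C1s, adjusted p = 0.039), 0 after median centring, and 1 higher (C1qa) and 1 lower (C1r, -0.00174) after quantile normalization. Without 1 array the count was 1 to 4. The diets were apart, with HP above control, in 6 of the 6 genes, in 0 after quantile normalization (1.03% of all probe sets) and in 4 after median centring (1.11%), against 7.09% of all probe sets as deposited. Quantile normalization keeps only the place of a probe set on its array, which moved by 0 (C1s) to 11 places (C1qb) between arrays for these genes. Of the 27 other complement genes 4 were called higher, but 2 without moderation, 0 with the replicate block, 2 after quantile normalization, 1 after median centring and 2 without any 1 array. Lower calls among them were 0 by limma, 2 by rank products and 11 after quantile normalization, where 24.8% of all probe sets were called lower and 1.02% higher. Of the 102 values of single classical pathway genes under the alternatives, 66 kept their direction and their side of the threshold, 30 lost and 5 gained a call, and 1 reversed. The deviations of samples of the same replicate number had correlations of 0.121, 0.0887, 0.0626 and 0.00148 over probe sets. Of the 4 HP arrays, 3 correlated best with the control array of their own number. Whether the numbers mark a pairing or a shared batch of the rats cannot be decided from these values. The causes of the other changes were not tested.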

Other observations

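A single probe set is annotated to both C4a and C4b, the near-identical genes of the thioester protein that C1s cleaves, and gives the level of neither alone. Its values were 9.627, 9.640, 9.624 and 9.622 in the HP arrays, against 9.586, 9.580, 9.583 and 9.582 in the control arrays. The diets did not overlap. The difference was 0.0458 (SE 0.00392, standardized difference 7.77, adjusted p = 0.0052 by limma), which ranked 7 by size among all probe sets, and the adjusted p was 0.0046 to 0.027 without 1 array and 0.0001 after quantile normalization.

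The 4 probe sets annotated to both C2 and Cfb, the neighbouring gene of the alternative pathway, had standardized differences of 3.56, 3.20, 2.58 and 3.82 with adjusted p-values of 0.038, 0.053, 0.094 and 0.033, and the diets did not overlap in any of them. Median centring, which shifts every difference by -6.11e-05, made 3 of the 4 differences negative, which were 1.06e-05 to 1.95e-05 as deposited. Of those 3, 2 were called lower after quantile normalization (-0.000159 with adjusted p = 1.5e-28, and -0.000166 with 0.00037), as were 24.8% of all probe sets. Of the 2 called higher, the one at 3.82 lost its call when any 1 array was left out (0.051 to 0.081), and the one at 3.56 had adjusted p-values of 0.027 to 0.1 without 1 array and 0.029 after quantile normalization. None of the 4 passed after median centring (0.98 each).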
